A study of Mus musculus with 6 samples.

Results

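The 9 genes described here, Msln, Upk3b, Upk1b, Wt1, Lrrn4, Gpm6a, Muc16, Bnc1 and Pdpn, are markers of the mesothelium. They were taken by symbol from the deposited count table, where each of the 9 was found among 52323 genes, and all 9 passed the filter on low counts that left 19135 genes for testing. The libraries were bulk RNA-seq profiles of damaged hepatocytes (dHeps), cells isolated by perfusion from the livers of mice chronically injured with carbon tetrachloride (CCl4) and cultured until day 16 in Hepatocyte Maintenance Medium without serum. Every group came from Rosa-LSL-tdTomato mice that had received AAV-TBG-Cre, a virus in which a hepatocyte-selective promoter drives Cre, so that hepatocytes and their progeny carry tdTomato. The study describes most of the isolated cells as carrying the label and describes no sort on it before culture, and the label itself was not analysed here. Cells were given DMSO alone as the vehicle, 3 compounds together (3C) or 5 compounds together (5C), and 2 libraries were made per group. 3C held 50 µM CID755673, a protein kinase D inhibitor, 2 µM GSK429286A, a ROCK inhibitor, and 5 µM ETC-1002, and 5C held these with 5 µM salidroside and 2 µM forskolin, which raises cAMP. The labels do not say whether the 2 libraries of a group came from different animals or cultures, so the p-values measure the spread between libraries, which may be technical.

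The mesothelium is the flat epithelium that lines the body cavities and covers the organs within them, and in the liver it forms the outer layer of the capsule. Mesothelial cells derive from mesoderm and carry epithelial and mesenchymal features at once. In the developing liver and after injury to its surface they can give rise to stellate cells and fibroblasts. Wt1, a zinc finger transcription factor, is a classic marker of mesothelium, and mesothelin, the product of Msln, is a surface protein of the same cells.

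Promoter sequences of the NCBI RefSeq table (build GRCm38.p6) were looked up for the 9 genes and matched 6 of them, with 7 windows, since Gpm6a had 2. The windows of Upk3b, Lrrn4 and the first of Gpm6a are shown because these were the 3 of 7 that held a motif searched for, and each is the 250 bases before an annotated start, written 5′ to 3′ on the strand of the gene. The bases that follow the Gpm6a window shown were not found near the start of any Gpm6a transcript in the GENCODE annotation. Those that follow the other Gpm6a window, which held no motif searched for, were found there. That window lies at 54954478 to 54954727 on the same chromosome and strand, so the Gpm6a window shown lies upstream of it. The bases after the Upk3b and Lrrn4 windows were also found near the start of a transcript of their gene. Only a short stretch was sought, anywhere in the early part of a transcript, so a match does not place a start exactly. Capitals mark GGAATG or its reverse complement, the type of site that TEAD factors bind.
Upk3b (chr5:136038246-136038495, plus strand): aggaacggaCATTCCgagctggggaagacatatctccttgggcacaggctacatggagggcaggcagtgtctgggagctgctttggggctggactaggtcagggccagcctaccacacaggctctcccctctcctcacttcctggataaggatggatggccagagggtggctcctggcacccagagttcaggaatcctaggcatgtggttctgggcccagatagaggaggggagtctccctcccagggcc
Lrrn4 (chr2:132880863-132881112, minus strand): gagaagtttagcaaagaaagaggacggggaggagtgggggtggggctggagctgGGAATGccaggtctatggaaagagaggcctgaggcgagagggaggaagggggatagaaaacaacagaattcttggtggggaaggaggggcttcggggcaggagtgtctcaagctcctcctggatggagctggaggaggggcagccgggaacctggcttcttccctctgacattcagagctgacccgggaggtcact
Gpm6a (chr8:54779184-54779433, plus strand): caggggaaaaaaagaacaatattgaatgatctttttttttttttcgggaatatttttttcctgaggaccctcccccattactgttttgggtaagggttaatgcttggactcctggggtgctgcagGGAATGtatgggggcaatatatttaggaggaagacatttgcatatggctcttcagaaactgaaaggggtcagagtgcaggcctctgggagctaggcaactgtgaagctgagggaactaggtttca
GGAATG, searched on both strands, occurred in 12.6% of the 32544 promoter windows of the same length. TGACG, the short form of the element that cAMP-responsive factors bind, occurred in 17.8% of all windows and in 0 of the 7. GCGTGGG, a sequence type bound by WT1 and EGR factors, occurred in 4.34% of all windows and in 0 of the 7. No motif overlapped another in these windows. The window of Bnc1 differed from the others in base composition, with 83.6% G and C and 39 CpG sites, against a median of 52.4% and 6 over all windows, while the other 6 windows held 0 to 5 CpG sites. A match says that these letters are present and not that a factor is bound.

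The levels of the markers spanned a wide range. Total counts were 65916573 to 69245895 per library. Counts were scaled to the library total as CPM, the count per 1000000 counts of the library, and levels between genes were compared on the authors' FPKM, which are also scaled for length. By FPKM, Msln had the highest level of the 9 genes in each group, with 195 ± 19.9 (SD, n = 2) in DMSO, 253 ± 1.75 in 3C and 295 ± 1.2 in 5C. Of the 19125 tested genes with FPKM values it ranked 291st in DMSO and 191st in 5C. Upk1b followed in each group, and then Gpm6a, Upk3b and Pdpn, whose neighbours in the order overlapped in their library values in each group. In DMSO, Upk1b also overlapped with Gpm6a, and Bnc1 with Lrrn4. Muc16 had the lowest level, 0.536 ± 0.391 in DMSO and 1.06 ± 0.261 in 5C. Lrrn4 was the gene that changed its place most, from 8th of the 9 in DMSO to 6th in 3C and 5C, above Wt1 and Bnc1 without overlap. A list of 10 hepatocyte markers was taken because the labels name the cells as hepatocytes, and all 10 passed the filter. Their summed levels were 2377 to 2705 CPM in DMSO, 10730 to 11210 CPM in 3C and 9786 to 14380 CPM in 5C. Alb made up most of the sum in the cocktails, with 7402 and 7769 CPM in 3C and 6766 and 10400 CPM in 5C. These values do not test the identity of the cells.

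Set against DMSO, the full cocktail tests all 5 compounds at once. In 5C 7 of the 9 mesothelial markers rose: Wt1, Bnc1, Upk3b, Upk1b, Gpm6a, Pdpn and Lrrn4. A gene was called, and is said to have risen or fallen, at a Benjamini-Hochberg adjusted p under 0.05 in the quasi-likelihood test of edgeR and an absolute log2 fold change above 1. Of all tested genes 11.7% were called in this comparison, 7.30% higher and 4.42% lower. The median log2 fold change was 1.18 over the 9 markers and 0.0041 over all tested genes. Both 5C libraries were above both DMSO libraries for 8 of the 9 markers, as for 30.9% of all tested genes. In this and the following comparisons, more cells of a type and more RNA per cell cannot be told apart in bulk samples.

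Salidroside and forskolin distinguish 5C from 3C, and the contrast of the cocktails compares cells with and without these 2 compounds. Here 6 markers rose, namely Wt1, Bnc1, Upk3b, Upk1b, Gpm6a and Pdpn, while 3.01% of all tested genes were called, 2.16% higher and 0.852% lower. The median log2 fold change was 1.11 over the 9 markers and -0.011 over all tested genes. Both 5C libraries were above both 3C libraries for 9 of 9 markers, as for 23.2% of all tested genes. Without 3C replicate 2 the count was 3 (Upk1b, Gpm6a and Pdpn), since Bnc1 (0.95), Upk3b (0.96) and Wt1 (0.96) came below a log2 fold change of 1 with adjusted p-values of 0.017, 0.0148 and 0.0108 by edgeR.

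The third contrast sets the 3 shared compounds against DMSO. Of the 9 markers 1 rose, Lrrn4, and 9.45% of all tested genes were called, 5.83% higher and 3.62% lower. The median log2 fold change was 0.070 over the markers and 0.0088 over all tested genes. For the 6 markers that rose in 5C against 3C, the log2 fold changes in 3C ranged from -0.067 to 0.22 with adjusted p-values of 0.232 to 0.969 by edgeR. Without DMSO replicate 1, Bnc1 was at 0.43 (adjusted p = 0.0163) and Upk1b at 0.33 (adjusted p = 0.047), under the fold limit, and without DMSO replicate 2 they were at 0.031 and 0.070. In the fit to all libraries, the 95% intervals together spanned 0.797-fold to 1.42-fold over the 6 markers. Both 3C libraries were above both DMSO libraries for 3 markers, Msln, Lrrn4 and Upk1b, as for 33.6% of all tested genes. Each comparison shares libraries with each of the other 2, so their values are given side by side and not as independent results. The 6 markers were chosen by 5C against 3C, which shares the 3C libraries with 3C against DMSO. That choice favours genes low in 3C, so their small differences from DMSO are not independent of it.

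**Figure D1:**
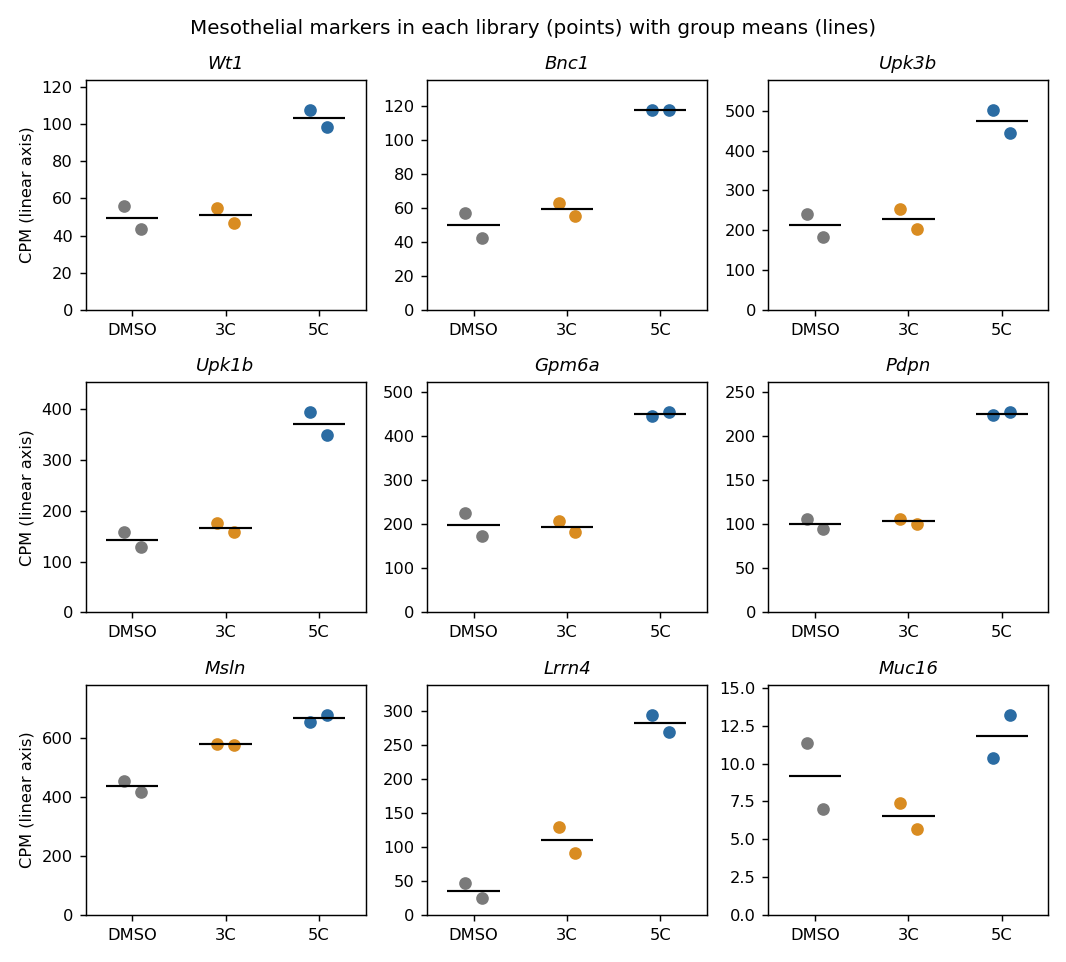
Level of each of the 9 mesothelial markers in CPM on linear axes that start at 0, with 1 point per library (grey DMSO, orange 3C, blue 5C) and a line at the mean of each group. Wt1, Bnc1, Upk3b, Upk1b, Gpm6a and Pdpn sit at similar levels in DMSO and 3C and higher in both 5C libraries, Msln and Lrrn4 are higher in both cocktails, and the Muc16 libraries of DMSO and 5C overlap.

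The transcription factors among the markers were Wt1 and Bnc1. Wt1 (ENSMUSG00000016458, chromosome 2, 104956625 to 105003961, GRCm39) had 55.9 and 43.4 CPM in the DMSO libraries, 55.1 and 47.1 CPM in 3C and 108 and 98.6 CPM in 5C. The DMSO and 3C libraries overlapped, and both 5C libraries were above them. Its log2 fold change was 1.07 (SE 0.12, adjusted p = 0.000184 by edgeR) in 5C against DMSO, 0.0099 (SE 0.12, adjusted p = 0.969) in 3C against DMSO and 1.06 (SE 0.12, adjusted p = 0.000985) in 5C against 3C. Without DMSO replicate 2 the first value was 0.92, under the fold limit, and on log2(FPKM + 1) the values against DMSO (0.92) and against 3C (0.94) were both under it, as they were on log2(FPKM + 0.1). The exons of Wt1 share 246 bases, 3.82% of its exon bases, with the antisense gene Wt1os, and the kit named in the labels, the NEBNext Ultra RNA kit, does not mark strand. Wt1os was listed at 1.34 to 2.82 CPM in the 6 libraries.

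Bnc1 (basonuclin 1, a zinc finger protein of stratified and mesothelial epithelia; ENSMUSG00000025105, chromosome 7, 81616401 to 81642341) had 57.4 and 42.5 CPM in DMSO, 63.2 and 55.3 CPM in 3C and 118 in both 5C libraries. The DMSO and 3C libraries overlapped, with 5C above both. It rose by 1.26 on the log2 scale in 5C against DMSO (SE 0.13, adjusted p = 0.000151 by edgeR) and by 1.04 in 5C against 3C (SE 0.13, adjusted p = 0.00182). The difference of 3C from DMSO was 0.22 (SE 0.13, adjusted p = 0.285), with a 95% interval of 0.947-fold to 1.42-fold. On log2(FPKM + 1) the value against 3C was 0.95, under the fold limit.

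The uroplakins are membrane proteins first known from the surface of the bladder epithelium, and Upk1b is a tetraspanin while Upk3b has a single membrane span. Upk3b (ENSMUSG00000042985, chromosome 5, 136067350 to 136075342) had 241 and 184 CPM in DMSO, 253 and 203 CPM in 3C and 503 and 444 CPM in 5C. Upk1b (ENSMUSG00000049436, chromosome 16, 38591981 to 38620727) had 157 and 129 CPM in DMSO, 176 and 158 CPM in 3C and 394 and 348 CPM in 5C. Both genes were higher in each 5C library than in any library of the other groups. For Upk3b the log2 fold change was 1.18 (SE 0.15, adjusted p = 0.00079 by edgeR) in 5C against DMSO and 1.11 (SE 0.15, adjusted p = 0.0034) in 5C against 3C. For Upk1b it was 1.39 (SE 0.10, adjusted p = 1.42e-05) and 1.2 (SE 0.10, adjusted p = 0.000273). In 3C against DMSO, Upk3b differed by 0.070 (adjusted p = 0.798) and Upk1b by 0.19 (adjusted p = 0.232), with 95% intervals of 0.829-fold to 1.33-fold and 0.971-fold to 1.34-fold. The exons of Upk3b share 6.06% of their bases with an annotated lncRNA on the opposite strand, Gm71213.

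Gpm6a encodes a tetraspan membrane glycoprotein that serves as a surface marker of liver mesothelial cells. It (ENSMUSG00000031517, chromosome 8, 55407719 to 55513912) had 226 and 174 CPM in DMSO, 207 and 182 CPM in 3C and 448 and 455 CPM in 5C. The 3C libraries lay between the DMSO libraries. The log2 fold change was 1.2 (SE 0.12, adjusted p = 7.65e-05 by edgeR) in 5C against DMSO, -0.067 (SE 0.11, adjusted p = 0.750) in 3C against DMSO and 1.26 (SE 0.12, adjusted p = 0.000418) in 5C against 3C.

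Pdpn encodes podoplanin, a mucin-type glycoprotein that binds the receptor CLEC-2 and that is also found on lymphatic endothelium and fibroblasts. Pdpn (ENSMUSG00000028583, chromosome 4, 142990871 to 143026143) had 107 and 94.6 CPM in DMSO, 106 and 101 CPM in 3C and 224 and 227 CPM in 5C. Its replicates were close within each group and its DMSO and 3C libraries overlapped. It rose by 1.18 on the log2 scale in 5C against DMSO (SE 0.07, adjusted p = 5.29e-06 by edgeR) and by 1.18 in 5C against 3C (SE 0.07, adjusted p = 0.000119). In 3C against DMSO the 95% interval ran from 0.895-fold to 1.13-fold.

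The 6 genes just described are those called in 5C against 3C, so a log2 fold change above 1 there was set by the choice. The choice also bears on their values in 3C against DMSO, which shares the 3C libraries. Their folds were 2.11 to 2.63 in 5C against DMSO and 2.06 to 2.40 in 5C against 3C. Outside this set, the folds in 5C against 3C were 1.19 for Msln, 1.88 for Muc16 and 2.65 for Lrrn4. The summed level of the 6 was 844 and 667 CPM in DMSO, 860 and 746 CPM in 3C and 1793 and 1691 CPM in 5C. Within the sum of the 9 markers, Wt1 made up 3.32% to 4.12% of the counts, Bnc1 3.81% to 4.44% and Pdpn 6.72% to 8.56% in the 6 libraries.

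**Figure D2:**
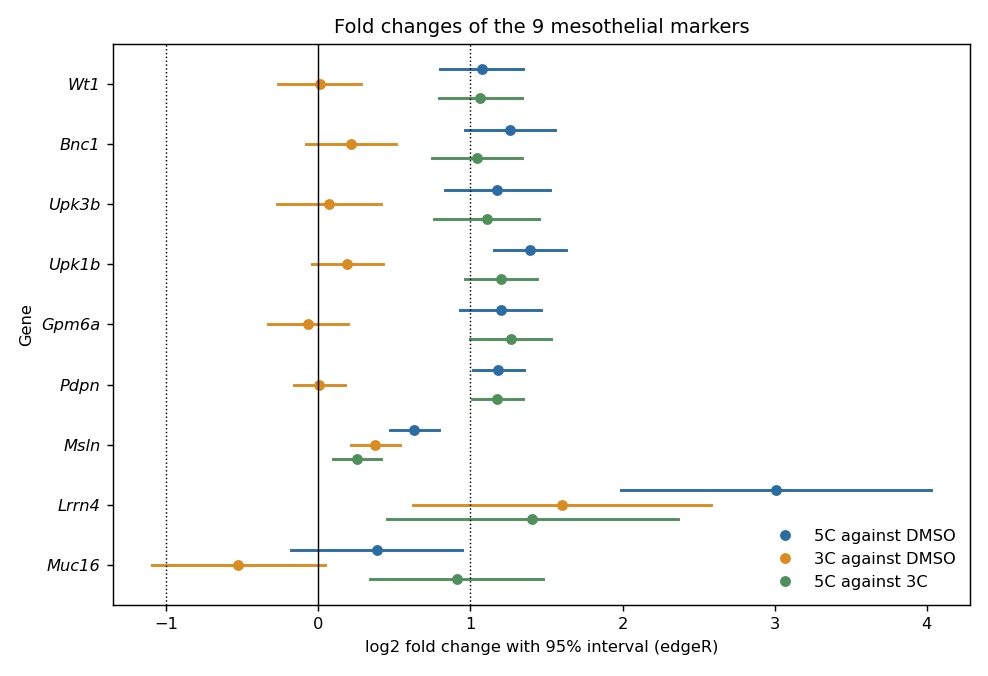
Log2 fold changes of the 9 mesothelial markers (points) with 95% intervals (lines) from the edgeR fit, for 5C against DMSO (blue), 3C against DMSO (orange) and 5C against 3C (green), with dotted lines at -1 and 1. For Wt1, Bnc1, Upk3b, Upk1b, Gpm6a and Pdpn the blue and green points lie between 1.04 and 1.39 and the orange ones between -0.067 and 0.22, while Lrrn4 has the widest intervals.

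Mesothelin, the product of Msln, is held at the cell surface by a lipid anchor and binds MUC16, a large membrane mucin. Msln (ENSMUSG00000063011, chromosome 17, 25967312 to 25985619) had 456 and 418 CPM in DMSO, 582 and 577 CPM in 3C and 655 and 680 CPM in 5C. The 3 groups did not overlap, and 3C lay between the others. The differences were 0.63 on the log2 scale in 5C against DMSO (SE 0.07, adjusted p = 0.00016 by edgeR), 0.38 in 3C against DMSO (SE 0.07, adjusted p = 0.00406) and 0.26 in 5C against 3C (SE 0.07, adjusted p = 0.0448), so that none reached the fold limit. The last adjusted p was 0.0592 with upper-quartile normalization, 0.183 on log2(FPKM + 1) and up to 0.264 when a library was left out. The share of Msln within the summed counts of the 9 markers was 33.6% and 37.4% in DMSO, 36.9% and 40.7% in 3C and 23.8% and 25.6% in 5C.

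Muc16 (ENSMUSG00000109564, chromosome 9, 18406745 to 18585826) had 11.3 and 7.02 CPM in DMSO, 7.37 and 5.66 CPM in 3C and 10.4 and 13.2 CPM in 5C. The DMSO libraries overlapped with both cocktails, and the 5C libraries were above the 3C libraries. It was not called in any comparison by edgeR. The log2 fold change was 0.39 (SE 0.25, adjusted p = 0.300) in 5C against DMSO, -0.52 (SE 0.25, adjusted p = 0.177) in 3C against DMSO and 0.91 (SE 0.25, adjusted p = 0.0463) in 5C against 3C. Single libraries moved these values. Without DMSO replicate 1 they were 0.76 in 5C and -0.15 in 3C relative to DMSO, and without DMSO replicate 2 they were 0.091 and -0.81, the last with an adjusted p of 0.0383. Without 5C replicate 2 the value in 5C against DMSO was 0.18, and without 3C replicate 2 that in 3C was -0.35. In 5C against 3C the adjusted p was 0.0701 to 0.265 without any 1 of the 4 libraries compared. The 2 deposited tables did not follow each other for this gene. Its count per unit of FPKM varied 3.27-fold between libraries, against 1.08-fold to 1.24-fold for the other 8 markers, and on log2(FPKM + 1) the difference of 3C from DMSO was 0.14.

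Lrrn4, which encodes a neuronal leucine-rich repeat membrane protein, had the largest differences of the 9 genes. Lrrn4 (ENSMUSG00000043110, chromosome 2, 132705985 to 132735941) had 46.2 and 24.8 CPM in DMSO, 129 and 90.9 CPM in 3C and 294 and 269 CPM in 5C. The 3 groups did not overlap. It rose by 3.01 on the log2 scale in 5C against DMSO (SE 0.37, adjusted p = 0.00669 by edgeR), an 8.05-fold difference with a 95% interval of 3.97-fold to 16.3-fold. It rose by 1.6 in 3C against DMSO (SE 0.36, adjusted p = 0.0428). In 5C against 3C the difference was 1.41 (SE 0.35, adjusted p = 0.0897), which was not called. Both of the last calls depended on the fit. The adjusted p for 3C against DMSO was 0.103 with genes of at least 1 count in any library, 0.159 without 3C replicate 1, 0.0817 without 3C replicate 2, 0.117 without 5C replicate 1, 0.127 without 5C replicate 2 and 0.000495 with DESeq2. For 5C against 3C it was 0.00408 with DESeq2, 0.00768 in a fit to the 4 libraries compared, 0.00977 without DMSO replicate 1 and 0.00982 without DMSO replicate 2. For 5C against DMSO it was 0.0518 without 5C replicate 2.

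The exons of Lrrn4 share 1375 bases, 16.8% of its exon bases, with Crls1 on the opposite strand, whose reads cannot be told apart there, and its values are uncertain to that extent. Crls1, the cardiolipin synthase gene, was at 66.9 and 69.6 CPM in DMSO, 66.4 and 72.6 CPM in 3C and 91.4 and 82.8 CPM in 5C. Its log2 fold change was 0.37 for 5C and -0.0050 for 3C relative to DMSO and 0.37 between the cocktails, smaller than those of Lrrn4 in each comparison.

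Other genes of the mesothelium were taken as a list of 20, of which 19 were tested and Calb2 was not, with at most 12 counts in a library. In 5C against DMSO 6 of the 19 rose (C3, Rspo1, Aldh1a2, Prg4, Slpi and Alcam), in 3C against DMSO 1 rose (C3) and in 5C against 3C 3 rose (Cd200, Gata4 and Nkain4). Beside these counts, 7.30%, 5.83% and 2.16% of all tested genes were called higher, in the same order. At an adjusted p under 0.05 without a fold limit, 13 of the 19 were higher in 5C than in 3C, where 7.33% of all tested genes were higher and 5.33% lower. By the same rule 15 were higher in 5C than in DMSO, where 15.6% of all tested genes were higher and 13.1% lower. Against DMSO, 3C had 4 higher and 4 lower, beside 12.7% and 11.8% of all tested genes. The median of the list was 0.92 for 5C and 0.089 for 3C relative to DMSO, and 0.69 between the cocktails.

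Among these genes, Cd200, an immunoglobulin-family surface protein, had 59.3 and 56.1 CPM in DMSO, 45.0 and 44.6 CPM in 3C and 98.05 and 107 CPM in 5C. It rose by 1.24 on the log2 scale in 5C against 3C (SE 0.08, adjusted p = 0.000119 by edgeR). Gata4, a transcription factor of the septum transversum and its mesothelium, had 39.7 and 37.7 CPM in DMSO, 38.0 and 33.9 CPM in 3C and 77.9 and 70.0 CPM in 5C, and it rose by 1.09 in 5C against 3C (SE 0.09, adjusted p = 0.000258). Cd200 was lower in both 3C libraries than in both DMSO libraries, the 3C and DMSO libraries of Gata4 overlapped, and both genes were highest in 5C. Nkain4, a membrane protein, was the other gene that rose in this comparison (1.00).

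Rspo1, a secreted amplifier of WNT signaling, rose by 1.77 on the log2 scale in 5C against DMSO (adjusted p = 1.41e-05 by edgeR), from 37.0 ± 6.73 to 124 ± 10.5 CPM (SD, n = 2). Prg4, which encodes the lubricant lubricin, rose by 1.48 (adjusted p = 2.8e-05) and Aldh1a2, a retinoic acid synthesis enzyme, by 1.67 (adjusted p = 0.022). The 5C libraries of Aldh1a2 were far apart, at 17.4 and 8.13 CPM. By edgeR, 3C was above DMSO for Rspo1 (0.92, adjusted p = 0.000705) and Prg4 (0.89, adjusted p = 0.000735), under the fold limit. Alcam was at 0.91 (adjusted p = 2.23e-05) in 3C against DMSO. In 5C against 3C, Rspo1, Prg4 and Alcam differed by 0.84, 0.59 and 0.12. C3, a complement component that hepatocytes also make in quantity, rose by 2.24 in 5C and by 1.74 in 3C against DMSO. Efemp1, an extracellular matrix protein, had the smallest maximum over the 3 comparisons, with log2 fold changes of 0.056 for 5C and -0.16 for 3C relative to DMSO and 0.21 between the cocktails.

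**Figure D3:**
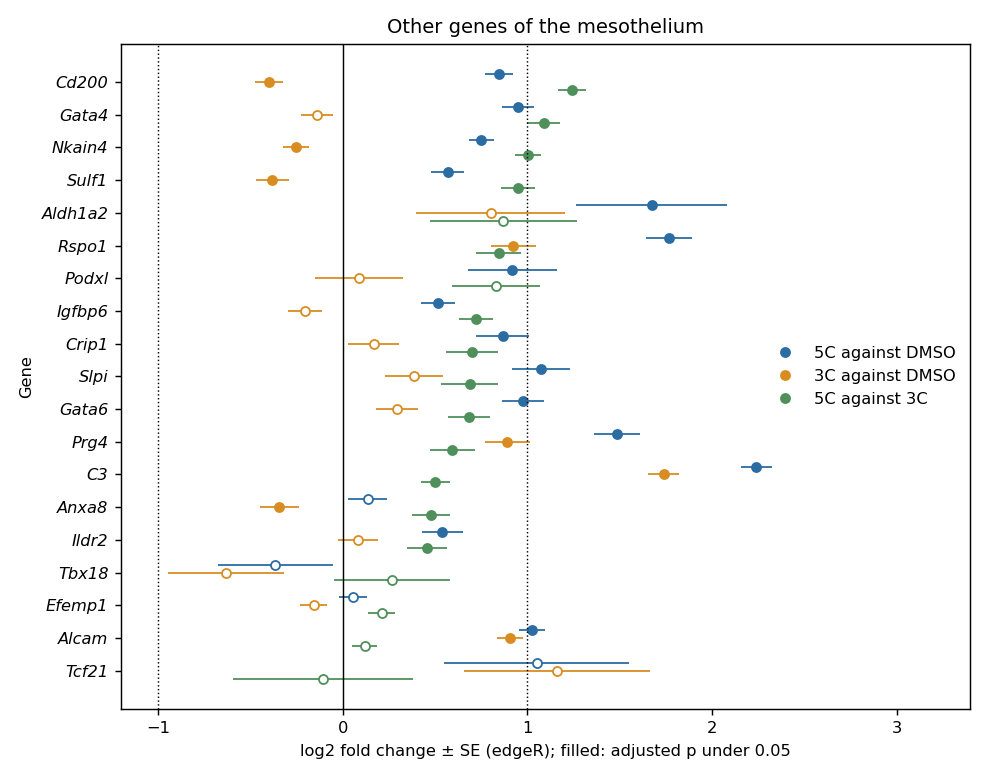
Log2 fold change ± SE (edgeR) of the 19 tested genes of the second mesothelial list, sorted by their value in 5C against 3C, with filled points where the adjusted p was under 0.05 and dotted lines at -1 and 1. Of the green points (5C against 3C) 18 of 19 lie above 0, as do 18 of 19 blue points (5C against DMSO), while 11 of 19 orange points (3C against DMSO) do.

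Family relatives of the markers were low. Of 13 relatives, 9 were tested, and Upk2 and Upk3a were at 0 in all libraries, whereas Upk3bl and Muc4 had at most 12 and 16 counts in a library. Their summed level was 14.8 to 15.0 CPM in DMSO, 21.5 to 30.7 CPM in 3C and 27.4 to 31.9 CPM in 5C. The relatives that rose were Lrrn1 (2.55 in 5C and 2.98 in 3C against DMSO), Lrrn2 (1.98 in 5C against DMSO and 2.94 in 5C against 3C) and Muc1 (1.26 in 5C and 2.03 in 3C against DMSO), on the log2 scale. Among all tested genes, 7.30% were called higher in 5C against DMSO, 5.83% in 3C against DMSO and 2.16% in 5C against 3C. Lrrn2 had 2.09 and 1.56 CPM in DMSO, 0.695 and 1.22 CPM in 3C and 7.46 and 6.77 CPM in 5C.

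Of 11 genes whose products bind podoplanin or WT1, 10 were tested. The single call over the 3 contrasts was in 3C against DMSO, where Clec1b fell by 1.53 on the log2 scale (adjusted p = 0.0494 by edgeR). In that comparison 3.62% of all tested genes were called lower. Clec1b, which encodes the podoplanin receptor CLEC-2, had 1.79 and 1.44 CPM in DMSO, 0.347 and 0.792 CPM in 3C and 0.695 and 0.679 CPM in 5C. At an adjusted p under 0.05 alone, 3 of the 10 were higher and 3 lower in 5C against DMSO, beside 15.6% and 13.1% of all tested genes. In 3C against DMSO 3 were higher and 3 lower, beside 12.7% and 11.8%. In 5C against 3C 1 was higher and 1 lower, beside 7.33% and 5.33%. Ezr, which links podoplanin to actin, and the hyaluronan receptor Cd44 were singled out after their values were seen. Ezr had 472 and 447 CPM in DMSO, 431 and 406 CPM in 3C and 649 and 602 CPM in 5C, and Cd44 had 180 and 209, 159 and 183, and 105 and 103 CPM.

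Mesothelial cells also contain keratins, which they share with hepatocytes and bile duct cells. Of 6 keratins, Krt7 and Krt14 rose in 5C against DMSO and Krt7 in 3C against DMSO, beside 7.30% and 5.83% of all tested genes. Krt8 and Krt18, named after their values were seen, were lower in 5C than in 3C without reaching the fold limit, at -0.66 (adjusted p = 0.0115) and -0.77 (adjusted p = 0.00296). Krt7 had 37.6 and 34.1 CPM in DMSO, 124 and 125 CPM in 3C and 146 and 129 CPM in 5C, a pattern that separated DMSO from both cocktails.

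Markers of other cell types moved with the groups as well, and their part in the results above was not tested. Beside the counts of calls in these lists, 7.30% of all tested genes were called higher and 4.42% lower in 5C against DMSO. The shares were 5.83% and 3.62% in 3C against DMSO, and 2.16% and 0.852% in 5C against 3C. Of 10 macrophage markers, all tested, 8 were called lower in 5C and 8 in 3C relative to DMSO. Their summed levels were 4846 to 5436 CPM in DMSO, 1922 to 1968 CPM in 3C and 1292 to 1363 CPM in 5C. Cd14, named after its values were seen, went the other way without reaching the fold limit. It was higher than in DMSO by 0.60 in 5C (adjusted p = 0.000734 by edgeR) and by 0.86 in 3C (adjusted p = 0.000112). Adgre1, a macrophage surface receptor, had 411 and 431 CPM in DMSO, 125 and 133 CPM in 3C and 83.4 and 82.8 CPM in 5C. Of 10 hepatocyte markers, 8 rose in 5C and 9 in 3C relative to DMSO, while 1, Cyp2e1, rose in 5C against 3C (1.91), where the median of the list was -0.0030. Arg1, named after its values were seen, was lower in each comparison without reaching the fold limit. It was at -0.85 in 5C (adjusted p = 0.000269 by edgeR) and -0.33 in 3C (adjusted p = 0.0422) relative to DMSO. Between the cocktails it was at -0.51 (adjusted p = 0.0115). Alb, albumin, had 1357 and 1182 CPM in DMSO, 7402 and 7769 CPM in 3C and 6766 and 10400 CPM in 5C. In 5C against 3C, Alb had a log2 fold change of 0.23 (SE 0.20, adjusted p = 0.588 by edgeR) and was not called.

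Of 10 stellate cell markers, 4 rose in 5C (Lrat, Pdgfrb, Colec11 and Ngfr) and 4 in 3C (Lrat, Rgs5, Colec11 and Ngfr) relative to DMSO, and Colec11 fell by 1.19 between 3C and 5C. Their summed level was 235 to 244 CPM in DMSO, 320 to 332 CPM in 3C and 269 to 376 CPM in 5C. Lrat, which stores retinoids in stellate cells, had 6.92 and 8.01 CPM in DMSO, 30.8 and 34.4 CPM in 3C and 14.4 and 20.4 CPM in 5C, and Des fell by 1.02 on the log2 scale in 3C against DMSO (adjusted p = 0.000228 by edgeR). Of 8 portal fibroblast markers, Eln, Entpd2, Col15a1 and Mfap4 rose in both cocktails relative to DMSO, and Eln and Mfap4 rose in 5C against 3C. The summed levels of the list were 1081 to 1107 CPM in DMSO, 839 to 859 CPM in 3C and 1163 to 1217 CPM in 5C. Most of this sum was Fbln2, with 931.2 and 974.5 CPM in DMSO, 674.3 and 643.3 CPM in 3C and 911.1 and 906.1 CPM in 5C. Thy1, a fibroblast surface protein, had 24.3 and 20.95 CPM in DMSO, 22.1 and 18.2 CPM in 3C and 29.5 and 31.2 CPM in 5C and was not called.

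Of 10 cholangiocyte markers, 5 rose and 1 fell in 5C and 7 rose in 3C relative to DMSO, while 1 fell in 5C against 3C. The gene that fell was Tspan8 in both cases, by 1.10 and 1.33 on the log2 scale. The summed level of the list was 2996 to 3508 CPM in DMSO, 3709 to 3911 CPM in 3C and 2485 to 2786 CPM in 5C. Most of this sum was Spp1, with 2748 and 3232 CPM in DMSO, 3182 and 3299 CPM in 3C and 2334 and 2058 CPM in 5C. Endothelial and lymphatic markers, from cell types that include another source of Pdpn, had 8 of 10 genes tested, of which Pecam1, Cdh5, Kdr and Tek rose and Lyve1 and Vwf fell in 5C relative to DMSO, Pecam1 and Cdh5 rose and Lyve1 and Vwf fell in 3C, and Kdr and Cdh5 rose in 5C against 3C, Cdh5 with an adjusted p of 0.04996. Pecam1 had 0.879 and 0.698 CPM in DMSO, 3.11 and 8.77 CPM in 3C and 22.3 and 41.4 CPM in 5C, while Lyve1 and Vwf had log2 fold changes of -2.43 and -2.43 in 5C against DMSO. Ccl21a and Clec4g, markers of lymphatic and sinusoidal endothelium, had at most 3 and 4 counts in a library, and of 8 lymphocyte markers only Cd4 was tested, at up to 38 counts, and Cd3e was at 0 in all libraries.

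**Figure D4:**
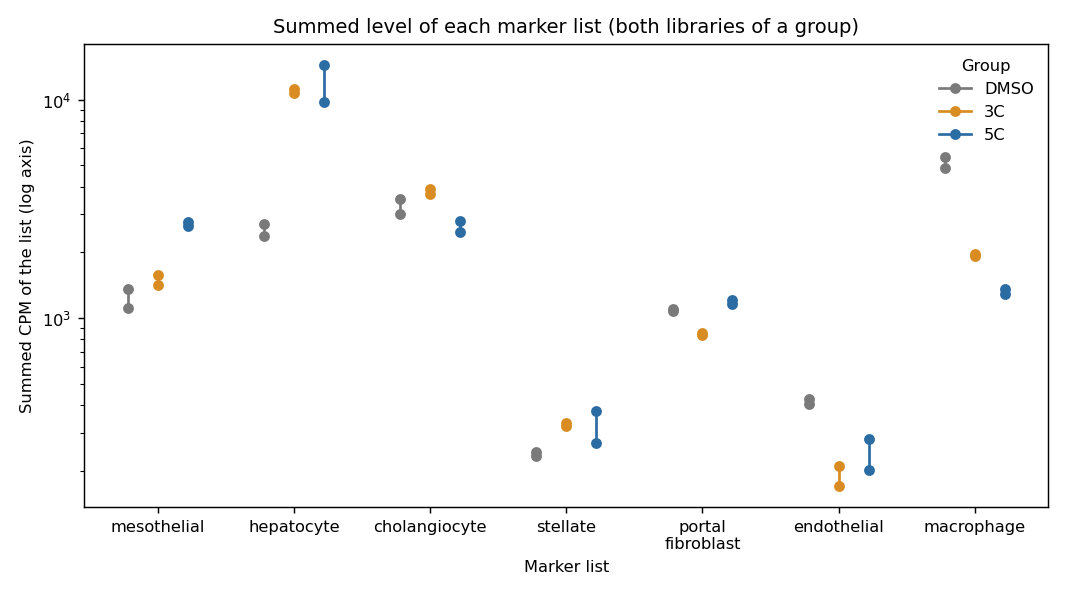
Summed CPM of each marker list on a log axis, with the lower and the higher library of each group (grey DMSO, orange 3C, blue 5C) joined by a line. The 9 mesothelial markers sum to 1116 to 1357 CPM in DMSO, 1419 to 1578 in 3C and 2653 to 2753 in 5C, the macrophage list is highest in DMSO and lowest in 5C, and the hepatocyte list is lowest in DMSO.

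The genes whose pattern was most like that of the 9 markers were sought among 14393 genes whose mean reached 1 CPM. Likeness was the root mean square difference, over the 6 libraries, between a gene's log2 CPM around its own mean and the same profile averaged over the 9 markers. The 5 nearest genes outside the list were Filip1 (0.041), Adra1b (0.062), Folr1 (0.067), Ninl (0.074) and Cdh11 (0.076). Folr1, the folate receptor 1, had 22.2 and 18.6 CPM in DMSO, 27.4 and 21.1 CPM in 3C and 50.4 and 49.0 CPM in 5C. Cdh11, a mesenchymal cadherin, had 99.7 and 70.4 CPM in DMSO, 119 and 97.9 CPM in 3C and 231 and 212 CPM in 5C. For the same distance, Bnc1 was at 0.013, Upk3b at 0.081, Upk1b at 0.091, Wt1 at 0.099, and Gpm6a and Pdpn at 0.12, whereas Msln (0.36), Muc16 (0.40) and Lrrn4 (0.79) stood apart, although each of the 9 entered the average. The 5 genes nearest to Msln were Sar1b, Cxadr, Parva, Chn2 and Smo, at 0.014 to 0.039.

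The replicates differed in one respect that touches these values. All 9 markers were higher in DMSO replicate 1 than in DMSO replicate 2, with a median difference of 0.35 on the log2 scale. All 9 were also higher in 3C replicate 1 than in 3C replicate 2, by a median of 0.19, while 4 of 9 were higher in 5C replicate 1 than in 5C replicate 2. The same differences were not taken over all tested genes, so whether they are particular to the markers was not tested. Without DMSO replicate 2 the median log2 fold change of the markers in 5C against DMSO was 1.03, and without DMSO replicate 1 it was 1.37.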

How the data were processed

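RNA from 6 libraries of cultured dHeps, 2 per group, was sequenced. The authors deposited estimated counts, whole numbers that are not normalized, and FPKM, scaled for length and library total. The submitters' processing notes name GRCm39, featureCounts, Subread and DESeq2 without roles, and the aligner, the annotation and the strand setting are not given in the sources used here. A count of 4 occurred more often (4816 entries) than 3 (3121) or 5 (2303), so that 1 fragment may often stand for 4 units. A count of 1 was more common still (6338 entries), so not every entry follows that unit. Totals of 65916573 to 69245895 counts per library set the precision, and no interval covers more than the spread between libraries.

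The 9 markers and the lists were chosen with earlier results of these data known. Groups were taken from the titles of the samples. All 6 libraries entered 1 edgeR 4.0.16 fit (R 4.3.3, TMM, filterByExpr, robust quasi-likelihood, 3 residual degrees of freedom, biological coefficient of variation 18.4%), and adjusted p-values cover 19135 genes. SEs and 95% intervals follow from the F statistic. All 9 markers were named. Of the other mesothelial genes and the family relatives, the called genes of largest change, up to 6 a list, and the least changed gene were named, except 1 gene that is not reported here. Of each cell type list, the first gene and up to 2 genes called against the list's median were named, with the 5 genes of most similar pattern to the 9 markers and to Msln. Other genes were named after their values were seen, among them those that made up a small count of calls or went against their list.

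Alternatives were RLE and upper-quartile normalization, other filters and thresholds, DESeq2 1.42.0, fits to 4 libraries, a replicate block, limma 3.58.1 on log2(FPKM + 1) and log2(FPKM + 0.1), counts divided by 4, and leaving out each library. Exon overlaps and positions came from GENCODE on GRCm39 and promoters from RefSeq on GRCm38.p6.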

Additional observations from a re-analysis of the deposited data

How the results depend on the processing

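The 7 calls in 5C against DMSO were 6 with limma on either FPKM scale, 8 without a fold limit and 7 under the other alternatives that kept 6 libraries, and the 6 calls in 5C against 3C ranged from 5 to 8 under these. Leaving out 1 library gave 6 to 7 and 3 to 7, and 0 to 1 in 3C against DMSO. The 1 call in 3C against DMSO was 0 with genes of at least 1 count in any library, with at least 10 counts in every library and in a fit to 4 libraries, and 2 without a fold limit. The medians of the markers ranged from 1.03 to 1.37, from -0.058 to 0.26 and from 0.96 to 1.22 when a library was left out, for 5C and then 3C relative to DMSO and for 5C relative to 3C. Over all tested genes, calls in that order numbered 2242, 1809 and 576. They were 5485, 4689 and 2423 without a fold limit, 1231, 958 and 261 on log2(FPKM + 1), 1021 for the last at an unadjusted p under 0.05, and 1923 to 2191, 1535 to 1784 and 381 to 642 without 1 library. The cause of these shifts was not tested, except that the thresholds differ by construction.

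Values that changed sign were those of markers not called in 3C against DMSO. Pdpn was -0.000176 with genes of at least 1 count, Wt1 was -0.026 on both FPKM scales, and Muc16 was 0.14 on log2(FPKM + 1) and 0.38 on log2(FPKM + 0.1). Without 1 library, Gpm6a ranged from -0.23 to 0.12, Pdpn from -0.058 to 0.082, Upk3b from -0.096 to 0.26 and Wt1 from -0.14 to 0.19. The replicate numbers of the labels paired no libraries that could be shown to belong together, since deviations of same-numbered libraries correlated across 19135 genes at -0.031, 0.00068 and 0.016. With a replicate block, 7, 1 and 7 markers and 2125, 1737 and 536 genes were called, and Lrrn4 passed in 5C against 3C (1.44, adjusted p = 0.011 by edgeR). With 2 libraries per group, Muc16, at 386 to 916 counts, was the marker with the fewest counts.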
